A study of Rattus norvegicus with 48 samples.

Results

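The miR-30 family was followed through small RNA sequencing libraries of rat serum and ulna bone. Its 8 members were taken by name from the 763 mature rat miRNAs that each library lists: rno-miR-30a-5p, rno-miR-30a-3p, rno-miR-30b-5p, rno-miR-30c-5p, rno-miR-30c-2-3p, rno-miR-30d-5p, rno-miR-30e-5p and rno-miR-30e-3p. The rats were male Zucker diabetic fatty animals (ZDF fa/fa), which are homozygous for a mutated leptin receptor and become diabetic, and Zucker lean animals without it (ZDF +/+), called WT. All of them, controls included, carried a surgical defect of the femur. Serum was sequenced after 12 weeks of treatment. The placebo and PTH groups held 5 rats each and the anti-sclerostin groups 4, in both genotypes, and a further 4 ZDF rats received insulin, so that insulin has no WT group. Ulna bone was sequenced from 4 rats in each of the WT placebo, ZDF placebo, WT PTH and ZDF PTH groups. PTH and anti-sclerostin, an antibody against the Wnt inhibitor sclerostin, both stimulate bone formation. The leptin receptor is mutated in every tissue of the ZDF rat, so obesity, high glucose and missing leptin signalling cannot be told apart here. The animals came from earlier experiments. The study lists its placebo rats under those on PTH and insulin but not under that on anti-sclerostin, so the anti-sclerostin treatment and its original experiment cannot be told apart. The bones came mostly from rats whose serum was also sequenced, but no label says which bone belongs to which serum.

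A miRNA hairpin is cut by Drosha and Dicer into a duplex with a 5p and a 3p arm, and usually 1 arm is kept by an Argonaute protein. The bases just behind the 5′ end of that arm, the seed, pair with target mRNAs and set which genes are repressed. The 5p arms of the miR-30 family share 1 seed. They are known for holding back osteoblast differentiation through the transcription factors Runx2 and Smad1, and for their high level in muscle, kidney and heart. The 3p arms carry other seeds and so have other predicted targets.

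The mature sequences of 5 of the 8 members were found in the RefSeq annotation of the rat assembly GRCr8. They are shown because the seed decides which members can act on the same mRNAs, and because near-identical members can share reads. Bases 2 to 8, the seed, are in capitals.
rno-miR-30a-5p: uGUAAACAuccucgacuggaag
rno-miR-30c-5p: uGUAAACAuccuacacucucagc
rno-miR-30e-5p: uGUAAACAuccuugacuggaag
rno-miR-30a-3p: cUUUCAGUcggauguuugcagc
rno-miR-30c-2-3p: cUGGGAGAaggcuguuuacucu
rno-miR-30c-1-3p: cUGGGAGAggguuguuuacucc
The last of these, rno-miR-30c-1-3p, is no member and is set beside its close relative. The 3 printed 5p arms share the seed GUAAACA, which 4 of the 693 mature names in the RefSeq table carry. The fourth is rno-miR-384-5p, which is not among the 8 members. The sequences of rno-miR-30b-5p and rno-miR-30d-5p were not found in that table, so the count does not cover them. Counted from the 5′ end, rno-miR-30e-5p differs from rno-miR-30a-5p by C13U alone. The authors' mapping allowed 1 mismatch, so reads of these 2 members may have been shared between them. The hairpin of rno-miR-30e-5p also holds, on its 3p side, a stretch that differs from rno-miR-30a-3p at 1 base. Reads of rno-miR-30a-3p and rno-miR-30e-3p may therefore have been shared too. Rno-miR-30c-5p differs from rno-miR-30a-5p by C13A, G14C, G18C, G19U and A20C. The 2 3p arms of miR-30c have 1 seed and differ by G9A, U12C and C22U, written from rno-miR-30c-1-3p to rno-miR-30c-2-3p.

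The printed members come from 2 places in the genome. On chromosome 9, rno-miR-30a-5p lies at chr9:33233946-33233967 and rno-miR-30a-3p at chr9:33233987-33234008, both on the plus strand in Mir30a, which no annotated gene spans. The Mir30c2 hairpin follows 19670 bases further on, inside the long non-coding RNA gene LOC134480562 and the pseudogene Rbx1-ps1, and holds rno-miR-30c-5p at chr9:33253695-33253717 and rno-miR-30c-2-3p at chr9:33253735-33253756. On chromosome 5, Mir30c1 and Mir30e lie 2906 bases apart on the minus strand within Nfyc, a gene for a subunit of the transcription factor NF-Y. They hold a further copy of rno-miR-30c-5p at chr5:139634505-139634527 and rno-miR-30e-5p at chr5:139637504-139637525. The sequence of rno-miR-30c-5p is the same in both hairpins, so its count is a sum over 2 genes, whereas rno-miR-30c-2-3p comes from Mir30c2.

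The serum libraries held 28015 to 205664 miRNA reads and the bone libraries 41627 to 1398702. Replicates 1 and 2 of WT PTH bone stood apart as shallow, with 54497 and 41627 miRNA reads against 163549 and 282285 in replicates 3 and 4. No 2 libraries of a group agreed within sampling noise. The serum libraries carried the erythrocyte and liver miRNAs, and the bone libraries had higher levels of the osteoblast and mesenchymal list with 5 of 5 of its miRNAs called higher than in WT serum. In bone, the liver miRNAs rno-miR-122-5p and rno-miR-122-3p had a median of 0. The summed level of 6 skeletal muscle miRNAs ran from 47840 to 430971 CPM (counts-per-million of miRNA reads) across the bones and was over 200000 in WT placebo replicates 3 and 4 and ZDF placebo replicate 2. Levels are given below as CPM after TMM scaling (trimmed mean of M values, which evens out differences in library makeup) within a tissue, so a level in serum and a level in bone are not on 1 scale. The labels say of the replicates only that they are separate samples, so the tests measure the spread between these samples, part of which may be technical.

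Rno-miR-30a-5p was the leading member. In serum it ran from 2370 to 15981 CPM with a median of 5954 (n = 32), and in bone from 10381 to 125755 CPM with a median of 33600 (n = 16). It had the most reads of the 8 members in 31 of 32 serum libraries and in 16 of 16 bones. In the remaining serum library, ZDF anti-sclerostin replicate 3, rno-miR-30b-5p led with 37.3% of the family's reads. Among all miRNAs, rno-miR-30a-5p ranked 14th to 47th in serum and 2nd to 31st in bone.

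The next member by reads was rno-miR-30d-5p, with a median of 1965 CPM in serum and 4626 CPM in bone. It had the second most reads of the members in 31 of 32 sera and in 12 of 16 bones. Rno-miR-30b-5p had a median of 659 CPM in serum and 405 CPM in bone, rno-miR-30c-5p 359 and 1271 CPM, and rno-miR-30e-5p 619 and 2386 CPM. In serum the ranges of these 3 members over libraries overlapped, at 222 to 3492 CPM, 96.0 to 924 CPM and 434 to 1331 CPM in the same order.

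Among the 3p arms, rno-miR-30a-3p had a median of 353 CPM in serum and 2469 CPM in bone, and rno-miR-30e-3p 382 and 2042 CPM. Rno-miR-30c-2-3p was the rarest member. It was counted at 0 to 3 reads per serum library, with 0 reads in 20 of 32, and at 17 to 353 reads per bone library. Over all sera 17 of 2942603 miRNA reads came from it, or 5.78 CPM without TMM scaling (95% Poisson interval 3.37 to 9.25), against 1841 of 6401893 in bone, or 288 CPM (275 to 301). These intervals cover counting error only.

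**Figure D1:**
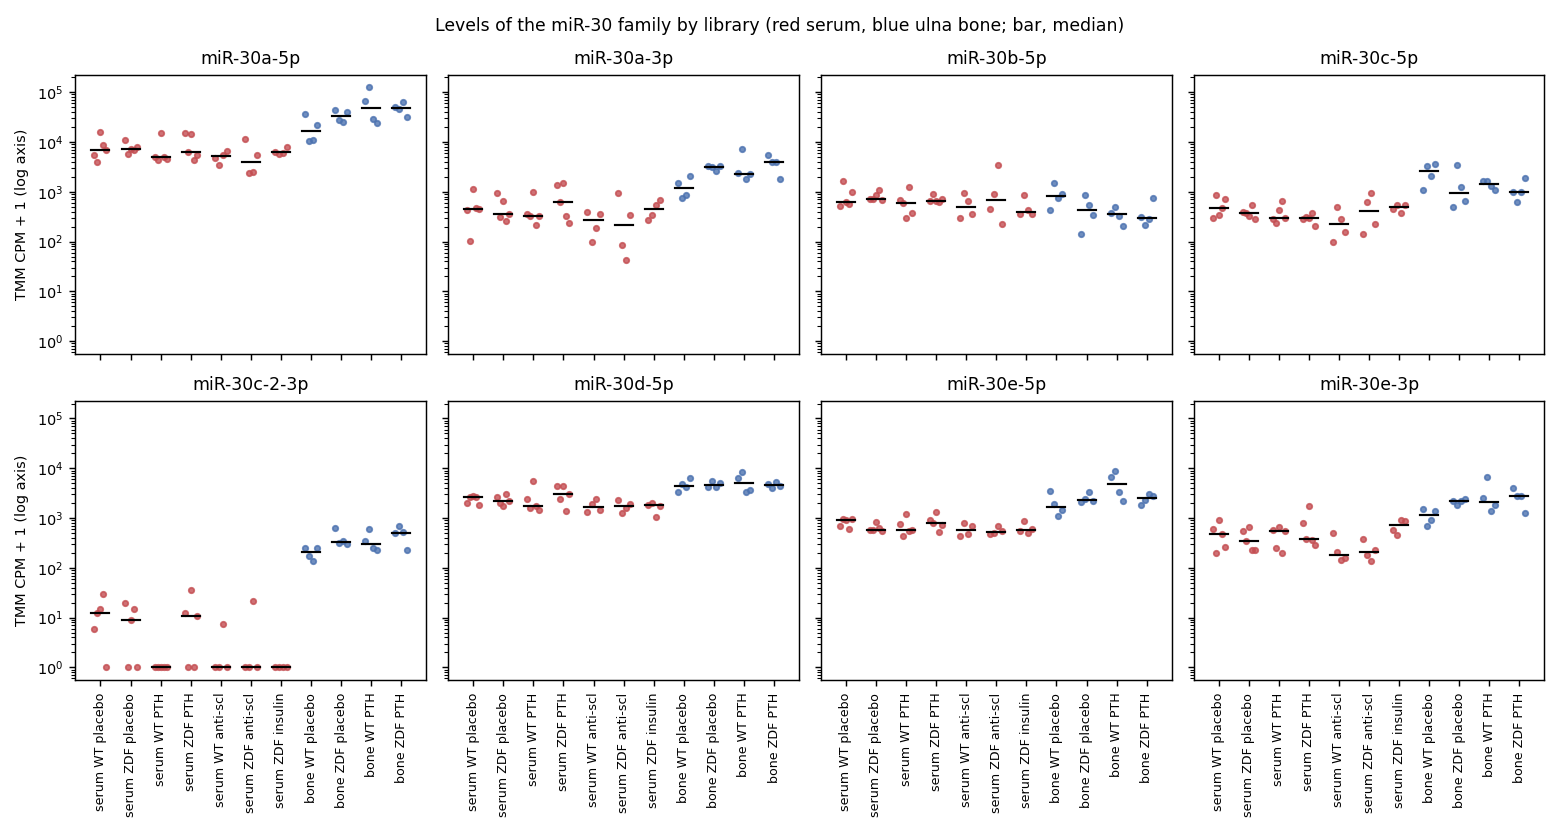
Level of each member in every library, as TMM CPM plus 1 on a log axis, by group (red, serum; blue, ulna bone; bar, group median). Rno-miR-30a-5p lies highest in both tissues, and rno-miR-30c-2-3p is at 0 CPM in 20 of the 32 sera, drawn at 1.

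The 8 members together took 0.575% to 3.15% of the miRNA reads in serum (median 1.05%) and 2.02% to 14.7% in bone (median 5.10%). In bone the share was 3.27% ± 1.5 (SD, n = 4) in WT placebo rats, 4.90% ± 0.999 (SD, n = 4) in ZDF placebo rats, 7.88% ± 4.82 (SD, n = 4) in WT PTH rats and 6.10% ± 1.25 (SD, n = 4) in ZDF PTH rats. The highest share, 14.7%, belonged to WT PTH replicate 2, the bone library with the fewest miRNA reads. In serum the group means ran from 0.834% ± 0.176 (SD, n = 4) in WT anti-sclerostin rats to 1.64% ± 0.953 (SD, n = 5) in ZDF PTH rats.

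The makeup of the family differed between the tissues. Rno-miR-30a-5p supplied a median of 56.9% of the family's reads in serum and 72% in bone, while rno-miR-30d-5p supplied 18.3% and 8.84%. The share of rno-miR-30b-5p was 6.16% in serum and 0.719% in bone. Within a library, which is free of any scaling, there were 9.55 reads of rno-miR-30a-5p per read of rno-miR-30b-5p in serum (median, range 0.709 to 51.4) and 102 in bone (6.91 to 309).

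**Figure D2:**
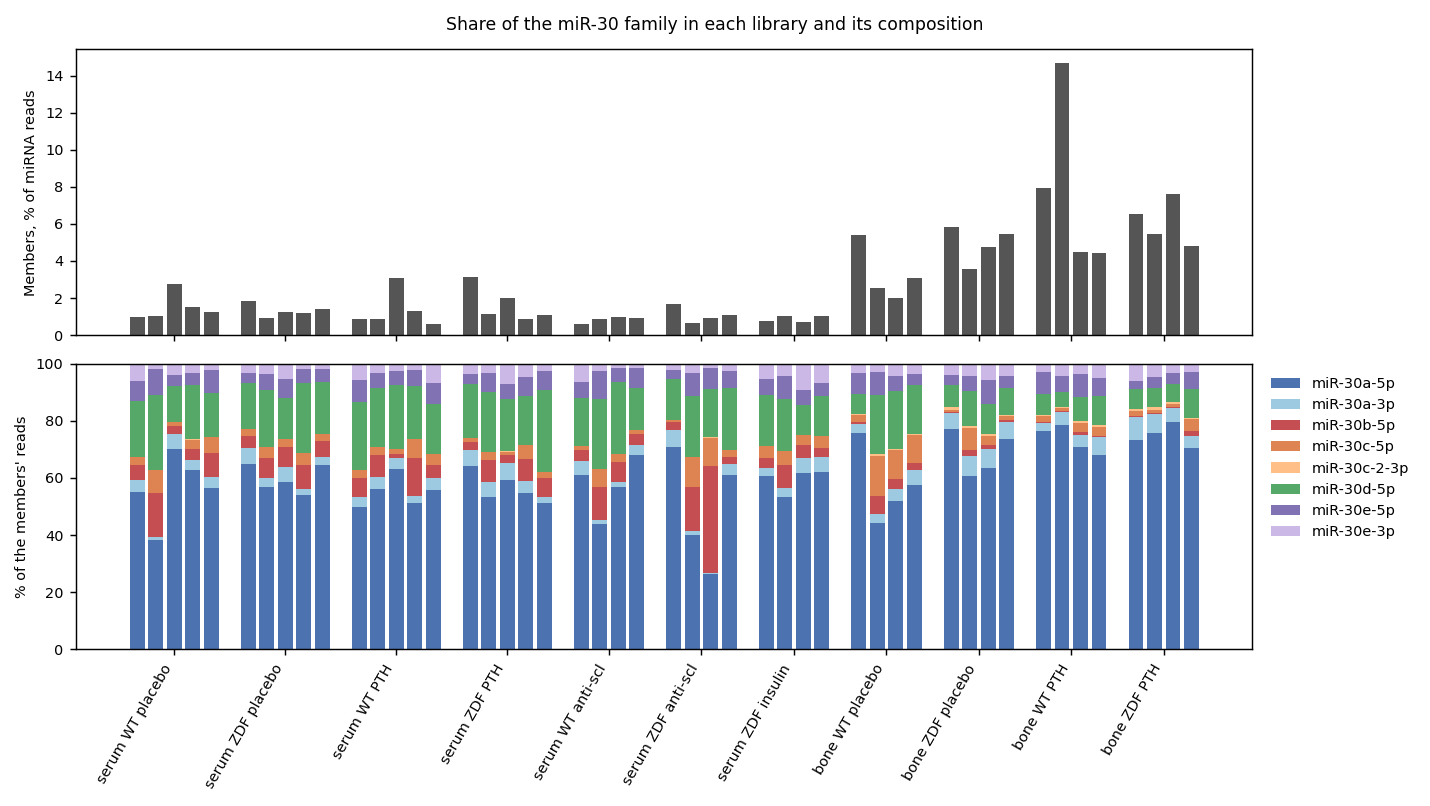
Top, percent of all miRNA reads that the 8 members took in each library. Bottom, percent of the members' reads by member. Serum shares stay at or below 3.15%, bone shares reach 14.7%, and the band of rno-miR-30b-5p narrows from a median of 6.16% in serum to 0.719% in bone.

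The 2 arms of a hairpin were kept at different ratios. Rno-miR-30a-5p had 15.5 reads per read of rno-miR-30a-3p in serum (median, range 9.48 to 60.3) and 13.0 in bone (8.60 to 28.0). For miR-30e the arms were near balance, with 1.70 reads of the 5p arm per read of the 3p arm in serum (0.560 to 5.23) and 1.26 in bone (0.462 to 2.72). Either arm may have shared reads with miR-30a, so this ratio may not be that of miR-30e alone. The 3p arm of miR-30e outnumbered the 5p arm at the median of 2 of the 11 groups, with 0.834 reads of 5p per read of 3p in ZDF insulin sera (0.560 to 1.88) and 0.955 in ZDF PTH bones (0.462 to 2.19). The sequences of the 3p arms of miR-30b and miR-30d were not in the RefSeq table used. Both were sparse in the counts, with 0 to 1 and 0 to 4 reads per serum library and 0 to 14 and 2 to 42 per bone library. Rno-miR-30c-1-3p had 0 to 6 reads in serum and 0 to 64 in bone, and rno-miR-384-5p, which shares the family's seed, 0 to 2 and 0 to 23. None of these 4 rows passed the filter on low counts in a serum comparison. In ZDF bone, PTH against placebo gave a log2 fold change of −0.04 for rno-miR-30c-1-3p (FDR 0.969) and −0.48 for rno-miR-30d-3p (FDR 0.750).

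The question of how tissue and circulation differ was addressed in placebo rats. In WT rats, 7 of 8 members were higher in bone than in serum at a false discovery rate (FDR) below 0.2. That threshold holds for every call here. Of the 222 miRNAs tested, 80.6% were called in either direction, with 93 higher in bone and 86 lower. The tissues differ in most miRNAs, so the share of the members called, whatever the direction, is near the background. Rno-miR-30c-2-3p, 1 of the 7, passed the filter on low counts only through the bones, so its call is no support. In bulk samples, fewer cells of a type and less RNA per cell cannot be told apart. Rno-miR-30c-5p was at 291, 842, 341, 462 and 700 CPM in WT placebo sera and at 1092, 3249, 2056 and 3660 CPM in WT placebo bones. Every bone lay above every serum. The groups lay apart in this way for 2 of 8 members, beside 59.0% of the 222 miRNAs tested. The other of the 2 was rno-miR-30c-2-3p, which is no support here either, since it passed the filter only through the bones. The log2 fold change of rno-miR-30c-5p was 1.96 (SE 0.43, FDR 0.000797, edgeR quasi-likelihood test with Benjamini-Hochberg adjustment over all miRNAs tested). Rno-miR-30c-2-3p was counted in WT placebo rats at 6 reads over the 5 sera and 398 reads over the 4 bones, a ratio of 19.5 per miRNA read (95% interval from counting 8.88 to 53.4). Lower values were found for rno-miR-30a-5p, at 1.05 (SE 0.51, FDR 0.0791), rno-miR-30a-3p, at 1.02 (SE 0.57, FDR 0.115), rno-miR-30d-5p, at 0.68 (SE 0.33, FDR 0.0748), rno-miR-30e-5p, at 1.07 (SE 0.44, FDR 0.0413) and rno-miR-30e-3p, at 0.96 (SE 0.50, FDR 0.0990). The median of all miRNAs tested was 0.10. Only rno-miR-30b-5p did not pass, at −0.23 (SE 0.44, FDR 0.642). With serum replicate 2 left out 4 members were called (172 of 215 miRNAs), and with bone replicate 1 left out 3 (189 of 230).

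In ZDF placebo rats, all 8 members were called between the tissues, 7 higher in bone and 1 lower. Of the 202 miRNAs tested, 86.1% were called, 93 higher and 81 lower. Here too rno-miR-30c-2-3p passed the filter on low counts only through the bones, so its call is no support. The ZDF placebo sera held 10822, 5727, 7156, 6815 and 7793 CPM of rno-miR-30a-5p and the bones 44063, 27349, 25291 and 39700 CPM. Every bone lay above every serum, with a log2 fold change of 2.17 (SE 0.30, FDR 9.6e-06). The groups did not overlap for 7 of 8 members, beside 70.3% of the 202 miRNAs tested. Rno-miR-30c-2-3p is among these 7 and is no support here either. Rno-miR-30a-3p differed by 2.58 (SE 0.41), rno-miR-30e-3p by 2.39 (SE 0.39), rno-miR-30e-5p by 1.99 (SE 0.32), rno-miR-30c-5p by 1.92 (SE 0.48) and rno-miR-30d-5p by 1.05 (SE 0.27), where the median of all miRNAs was 0.21. Of rno-miR-30c-2-3p, 3 reads were counted over the 5 sera and 586 over the 4 bones, a ratio of 39.9 (13.6 to 194). Rno-miR-30b-5p went the other way. Its level was 702, 703, 862, 1059 and 679 CPM in serum and 143, 861, 532 and 333 CPM in bone, so the groups overlapped through bone replicate 2. Its difference, lower in bone, was −0.78 on the log2 scale (SE 0.42, FDR 0.107), and the call was kept in 6 of the 9 fits that left out 1 library. Of the marker lists, all 5 tested of the 6 skeletal muscle miRNAs were called higher in ZDF bone, and 4 of 5 osteoblast and mesenchymal miRNAs. Called lower were 3 of 4 erythrocyte, 3 of 4 leukocyte and 3 of 3 liver miRNAs, while 1 of the leukocyte list was higher. The skeletal muscle sum was 1233 to 10711 CPM in ZDF serum and 79325 to 430971 CPM in ZDF bone. None of its 6 miRNAs was at 0 in all libraries of either group. The part of these lists in the result was not tested.

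Ulna bone of placebo rats was compared between the genotypes to see what differs in the tissue of ZDF rats. The 3p arms were higher in ZDF bone: 3 of the 8 members were called, all 3p, where 17.0% of the 135 miRNAs tested were called. Rno-miR-30a-3p was at 1478, 755, 877 and 2058 CPM in WT bones and at 3219, 3179, 2583 and 3231 CPM in ZDF bones. The groups did not overlap, and WT replicates 2 and 3 were the lowest. The log2 fold change was 1.21 (SE 0.35, FDR 0.114). Rno-miR-30e-3p was at 1546, 700, 916 and 1409 CPM in WT bones and at 2224, 1869, 2216 and 2364 CPM in ZDF bones. Here too every ZDF bone lay above every WT bone, by 0.89 on the log2 scale (SE 0.31, FDR 0.192). Rno-miR-30c-2-3p was at 252, 174, 139 and 246 CPM in WT bones and at 617, 319, 338 and 305 CPM in ZDF bones. ZDF replicate 1 was far above the rest, and the groups again lay apart, with a log2 fold change of 0.93 (SE 0.35, FDR 0.192). It was 0.56 at the lowest with 1 library left out. Groups that did not overlap were found for 3 of the 8 members, beside 14.1% of the 135 miRNAs tested. Reads of rno-miR-30a-3p and rno-miR-30e-3p may have been shared, so their calls may not be separate results.

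The 5p arms, which carry the shared seed, did not pass the test in this comparison. Rno-miR-30a-5p was at 35931, 10381, 10710 and 21792 CPM in WT bones and at 44063, 27349, 25291 and 39700 CPM in ZDF bones. WT replicate 1 reached into the ZDF range, and the log2 fold change was 0.75 (SE 0.43, FDR 0.337). It was 0.31 for rno-miR-30e-5p (SE 0.38, FDR 0.686) and −0.00 for rno-miR-30d-5p (SE 0.27, FDR 0.993). Rno-miR-30b-5p had −0.97 (SE 0.52, FDR 0.323) and rno-miR-30c-5p −0.80 (SE 0.59, FDR 0.452). Over the 8 members the median was 0.53, beside −0.09 over all miRNAs tested.

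The calls in ZDF bone hung on single libraries. None was made with WT replicate 2 or ZDF replicate 1, 3 or 4 left out, fits in which no miRNA at all was called. With WT replicate 3 left out 1 member was called, where 11 of 79 miRNAs tested were. The number was 5 with ZDF replicate 2 left out (55 of 223 miRNAs) and 6 with WT replicate 1 left out (87 of 264). Without the 3 placebo bones of high skeletal muscle level no member was called, and 0 of 221 miRNAs. Rno-miR-30a-3p then had 1.39 (FDR 0.289). Of the erythrocyte list 0 of 4 were called, and 2 of 4 leukocyte miRNAs were called lower in ZDF bone, with sums of 5556 to 8496 CPM in WT and 4213 to 5404 CPM in ZDF rats. Of the osteoblast and mesenchymal list 3 of 5 were called lower (63342 to 146410 CPM in WT, 72758 to 98762 CPM in ZDF), and of the skeletal muscle list 2 of the 4 tested were called higher (55174 to 404797 CPM in WT, 79325 to 430971 CPM in ZDF). No marker of these lists was at 0 throughout. Beyond the fit without the bones of high muscle level and the muscle covariate below, the part of these cells was not tested. With the skeletal muscle level as a covariate, rno-miR-30a-3p kept 1.24 (FDR 0.10).

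PTH was compared with placebo in bone to see how the family goes with an anabolic treatment. In WT bone, 5 of the 8 members were called, 4 higher and 1 lower under PTH, where 16.8% of the 179 miRNAs tested were called. The FDR was 0.175 for each of the 5. Rno-miR-30a-5p was at 65915, 125755, 28318 and 24275 CPM under PTH, against the 35931, 10381, 10710 and 21792 CPM of placebo. The top values belonged to PTH replicates 1 and 2, while replicates 3 and 4 lay within the placebo range. Its log2 fold change was 1.76 (SE 0.64). Its other arm, rno-miR-30a-3p, was at 2355, 7333, 1771 and 2243 CPM under PTH, with PTH replicate 3 inside the placebo range, and differed by 1.54 (SE 0.59). Rno-miR-30e-5p was at 6566, 8930, 3318 and 2195 CPM under PTH and at 3424, 1902, 1091 and 1480 CPM under placebo, a log2 fold change of 1.52 (SE 0.56). PTH replicates 1 and 2 were again the highest. Rno-miR-30e-3p was at 2475, 6704, 1416 and 1809 CPM under PTH and differed by 1.58 (SE 0.59). Reads may have been shared between the 5p arms of miR-30a and miR-30e, and between their 3p arms. The 4 higher calls may therefore not be separate results.

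Rno-miR-30b-5p went down in WT bone under PTH. Its level was 431, 1502, 742 and 907 CPM under placebo and 379, 498, 328 and 207 CPM under PTH. Placebo replicate 1 fell among the PTH bones. The log2 fold change was −1.27 (SE 0.48). The members not called were rno-miR-30c-5p at −0.73 (SE 0.44, FDR 0.407), rno-miR-30c-2-3p at 0.86 (SE 0.47, FDR 0.352) and rno-miR-30d-5p at 0.37 (SE 0.44, FDR 0.686). The median over the 8 members was 1.19, and over all miRNAs −0.08.

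PTH replicates 1 and 2, which held the highest values of rno-miR-30a-5p, rno-miR-30a-3p, rno-miR-30e-5p and rno-miR-30e-3p, were the 2 shallow bone libraries. Without them rno-miR-30a-5p had a log2 fold change of 0.27, rno-miR-30a-3p 0.53, rno-miR-30e-5p 0.33 and rno-miR-30e-3p 0.39, none of them called. Rno-miR-30b-5p then fell by 1.86 (FDR 0.166) and was the 1 member called, where 21 of 247 miRNAs were. With placebo replicate 2, 3 or 4 left out no member and no other miRNA was called. With PTH replicate 1 left out 2 members were called (11 of 82 miRNAs), and with PTH replicate 2 left out 1 (11 of 222). No member was called with the skeletal muscle level as a covariate, without the 2 WT placebo bones of high muscle level, or without independent filtering, which leaves the fold changes as they are. No miRNA at all was called with the covariate or without those 2 bones, and 12 of 222 were without independent filtering. The fold changes kept their direction in the other 2 settings. With the covariate they were 1.62 for rno-miR-30a-5p, 1.85 for rno-miR-30a-3p, 1.19 for rno-miR-30e-5p, 1.67 for rno-miR-30e-3p and −0.98 for rno-miR-30b-5p (FDR 0.935 each). Without the 2 muscle-rich bones they lay between 1.06 and 1.72 for the 4 higher members and at −1.40 for rno-miR-30b-5p (FDR 0.982 each). The summed skeletal muscle list was 47840 to 70525 CPM under PTH and 55174 to 404797 CPM under placebo, with 1 of 6 called higher and 1 lower. The osteoblast and mesenchymal list was 267932, 329237, 112064 and 82806 CPM under PTH and 146410, 83533, 63342 and 91846 CPM under placebo, with 1 of 5 called higher and 1 lower, and its 2 highest sums were in the same 2 shallow libraries. The median log2 fold change of these 5 miRNAs was −0.53. None of these markers was at 0 throughout. Beyond the skeletal muscle covariate and the fit without the muscle-rich bones, their part in the result was not tested.

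**Figure D3:**
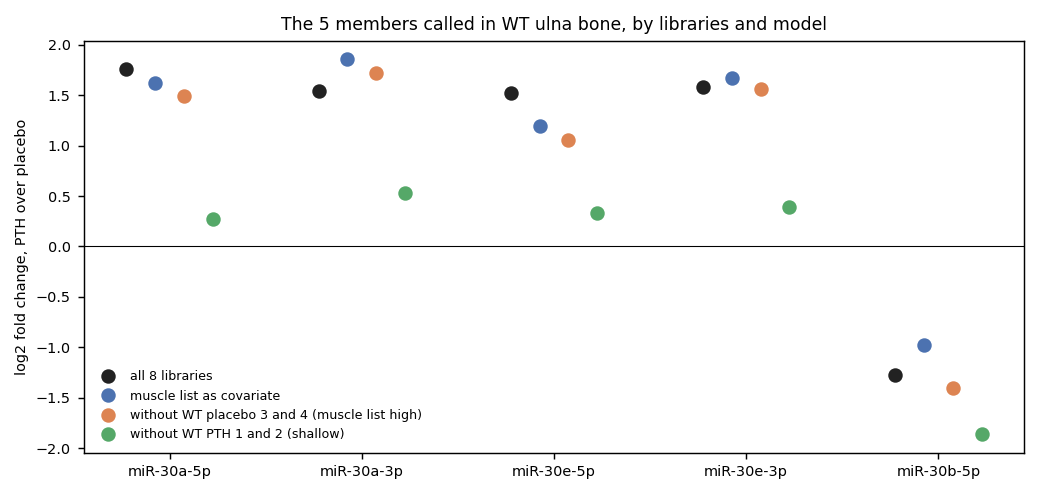
Log2 fold change of PTH over placebo in WT ulna bone for the 5 members called, with all 8 libraries, with the summed skeletal muscle list as covariate, and with either pair of libraries left out (points carry no error bar). Without the 2 shallow PTH libraries the values of the 4 higher members fall to between 0.27 and 0.53, while rno-miR-30b-5p is at −1.86. Reads of miR-30a and miR-30e may have been shared within each arm, so these 4 may not be separate results.

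In ZDF bone, no member passed the test between PTH and placebo rats. By edgeR 0 of 8 were called, and 0 with DESeq2, and 0 had an unadjusted p below 0.05, where 0% of the 215 miRNAs tested were called. Rno-miR-30a-5p was at 49425, 45751, 64627 and 31268 CPM under PTH, against 44063, 27349, 25291 and 39700 CPM under placebo. The groups overlapped, with a log2 fold change of 0.50 (SE 0.28, FDR 0.678). The other members lay between −0.31 and 0.32. The response to PTH itself was not shown to differ between the genotypes in bone: in the interaction 0 of 8 members were called by edgeR and by DESeq2, where 0% of the 243 miRNAs tested were called. The interaction of rno-miR-30e-5p was −1.43 on the log2 scale (SE 0.61, FDR 0.747), the 1 member with an unadjusted p below 0.05. For rno-miR-30a-5p it was −1.15 (SE 0.67, FDR 0.752) and for rno-miR-30b-5p 1.12 (SE 0.73, FDR 0.752).

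Between ZDF and WT bones under PTH, 0 of the 8 members were called by edgeR, where 3.27% of the 214 miRNAs tested were called. Rno-miR-30e-5p was at 1851, 2319, 2981 and 2729 CPM in ZDF PTH bones and at 6566, 8930, 3318 and 2195 CPM in WT PTH bones, a log2 fold change of −1.19 (SE 0.49, FDR 0.317). It was the 1 member with an unadjusted p below 0.05, and the 1 called by DESeq2. The 2 shallow WT libraries held its 2 highest values. Without them rno-miR-30e-5p had −0.12, and 3 other members were called, all higher in ZDF bone, where 61 of 187 miRNAs were called.

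**Figure D4:**
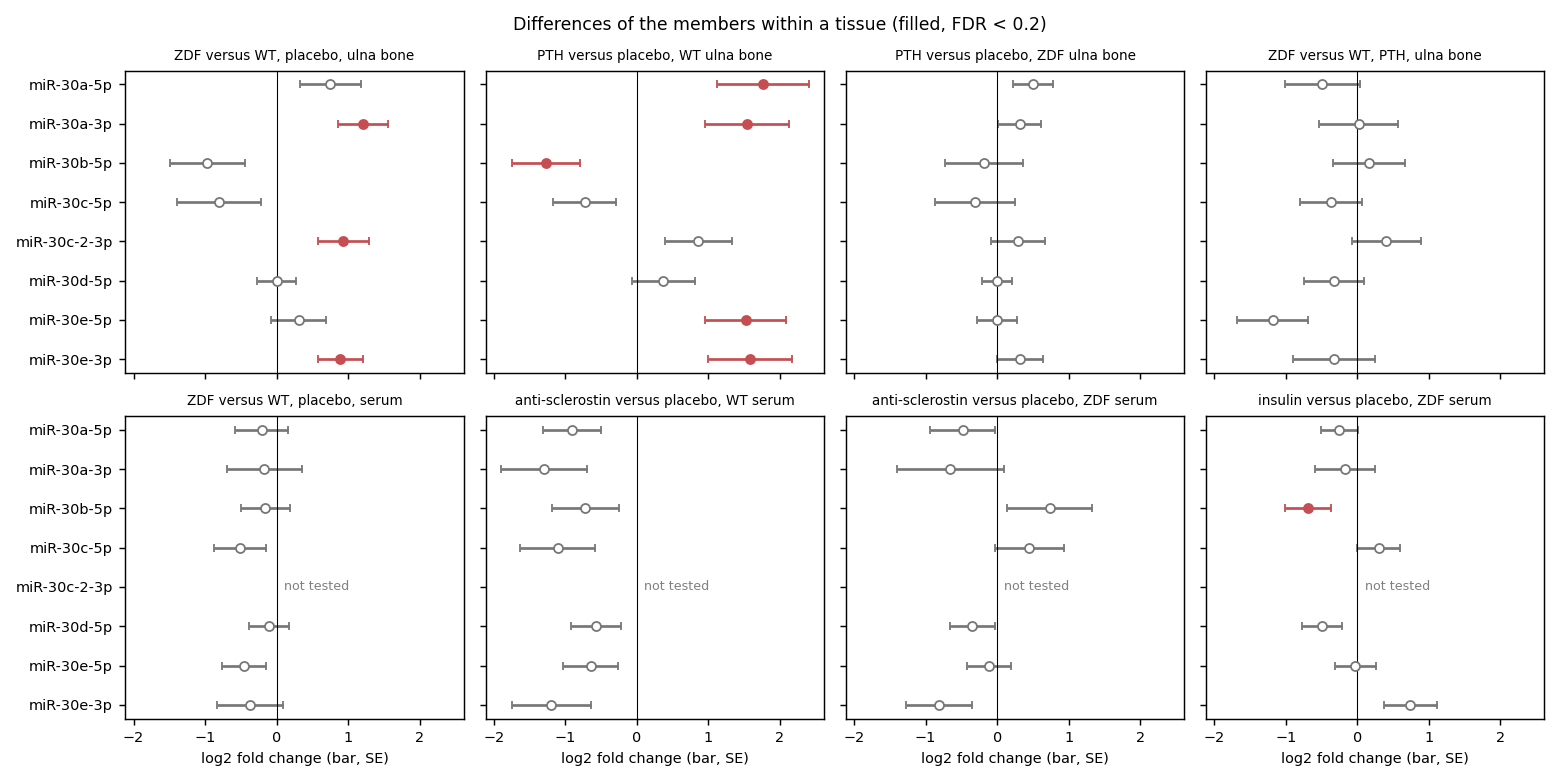
Log2 fold change of each member in 8 comparisons within a tissue (point, edgeR estimate; bar, SE; filled red, FDR < 0.2). In bone the 3p arms are called between genotypes and 5 members in WT rats under PTH, while in serum rno-miR-30b-5p under insulin is the 1 member called.

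In serum, placebo-treated ZDF and WT rats were compared to ask whether the circulating family differs between the genotypes. Of the 7 members tested, 0 were called by edgeR, 0 by DESeq2 and 0 had an unadjusted p below 0.05, where 6.10% of the 164 miRNAs tested were called. Rno-miR-30c-2-3p did not pass the filter on low counts in any serum comparison. Rno-miR-30a-5p was at 5554, 3983, 15981, 8865 and 6825 CPM in WT rats, beside the 10822, 5727, 7156, 6815 and 7793 CPM of ZDF rats. The groups overlapped over nearly their whole range, with a log2 fold change of −0.21 (SE 0.37, FDR 0.892) whose sign was not fixed, since it ran from −0.26 to 0.21 over the alternatives. The values of the other members lay between −0.51, for rno-miR-30c-5p, and −0.11, for rno-miR-30d-5p. The 3p arms that were higher in ZDF bone had −0.17 (rno-miR-30a-3p; SE 0.52, FDR 0.925) and −0.37 (rno-miR-30e-3p; SE 0.46, FDR 0.853) in serum. The liver list moved in this comparison, with 3 of 3 called higher in ZDF rats, at 1123 to 5722 CPM in WT and 6207 to 20851 CPM in ZDF rats. No liver miRNA was at 0 throughout, and their part in the result was not tested.

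Insulin was given to ZDF rats and compared with placebo, the treatment with the most calls in serum. Of the 7 members tested 1 was called, where 26.5% of the 151 miRNAs tested were, so the members' count is not above the background. Rno-miR-30b-5p was at 359, 865, 425 and 360 CPM under insulin and at 702, 703, 862, 1059 and 679 CPM under placebo. Insulin replicate 2 lay among the placebo sera and the other 3 below all of them. Its log2 fold change was −0.69 (SE 0.32, FDR 0.188). The call was not made by DESeq2 (FDR 0.277), and it was kept in 2 of the 9 fits that left out 1 library, those without insulin replicate 2 or placebo replicate 3. Rno-miR-30e-3p was at 564, 460, 911 and 861 CPM under insulin and 554, 346, 648, 231 and 232 CPM under placebo. Its groups overlapped, and it did not pass, at 0.74 (SE 0.37, FDR 0.213), though DESeq2 called it. Over the alternatives that kept all libraries its log2 fold change ran from −1.75 to 0.91, so its sign was not fixed. Rno-miR-30d-5p had −0.50 (SE 0.28, FDR 0.272), rno-miR-30c-5p 0.30 (SE 0.30, FDR 0.577), rno-miR-30a-5p −0.25 (SE 0.26, FDR 0.577), rno-miR-30a-3p −0.18 (SE 0.42, FDR 0.805) and rno-miR-30e-5p −0.03 (SE 0.29, FDR 0.967).

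Markers of red cells moved strongly with insulin. The erythrocyte list summed to 238765 to 375131 CPM under insulin and 89211 to 170993 CPM under placebo, with 4 of 4 miRNAs called higher, none at 0. The liver list had 3 of 3 called lower, at 2185 to 6278 CPM against 6207 to 20851 CPM. Beyond the hemolysis covariate below, their part in the result was not tested. With the hemolysis measure, the log2 ratio of rno-miR-451-5p to rno-miR-23a-3p reads, as a covariate, rno-miR-30b-5p had −0.41 (FDR 0.940). That fit called 0 of the 151 miRNAs tested, against 40 without the covariate, so the lost call is not particular to this member. With library totals in place of TMM rno-miR-30b-5p had −0.94 (FDR 0.0950). Under them 3 members were called, all lower, where 59 of 151 miRNAs were called, but that scaling also moved the median of all miRNAs by −0.29. The share of the 8 members in the miRNA reads of insulin sera was 0.898% ± 0.175 (SD, n = 4), and 1.2% ± 0.231 (SD, n = 4) when the erythrocyte miRNAs were left out of the total.

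Anti-sclerostin was compared with placebo in both genotypes. In WT serum, 0 of 7 members were called by edgeR and by DESeq2, where 0% of the 171 miRNAs tested were called, while 4 members had an unadjusted p below 0.05. Rno-miR-30a-5p was at 4761, 3504, 5538 and 6652 CPM under anti-sclerostin, and 3 of these 4 values lie within the placebo range of 3983 to 15981 CPM. Its log2 fold change was −0.91 (SE 0.41, FDR 0.459). The FDR of the 7 members lay between 0.459 and 0.522, the values between −1.30 and −0.57 and their median at −0.91, beside −0.11 over all miRNAs. With the alternatives tried, rno-miR-30a-3p ran from −1.35 to 0.05, so its sign was not fixed. In ZDF serum, 0 of 7 members were called by edgeR and by DESeq2 and 0 had an unadjusted p below 0.05, where 1.27% of the 158 miRNAs tested were called. Rno-miR-30b-5p ran from 222 to 3492 CPM in the 4 treated rats, at 451, 910, 3492 and 222 CPM. Replicate 3 was the highest of all sera, and the log2 fold change was 0.73 (SE 0.60, FDR 0.656). With anti-sclerostin replicate 1 left out, 3 members were called, all lower, where 32 of 152 miRNAs were called.

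The response to anti-sclerostin was not shown to differ between the genotypes. In the interaction, 0 of 7 members were called by edgeR and by DESeq2, where 0% of the 189 miRNAs tested were called, and 1 had an unadjusted p below 0.05. It was rno-miR-30c-5p, at 1.55 on the log2 scale (SE 0.74, FDR 0.822). Between ZDF and WT rats on anti-sclerostin, 0 of 7 members were called by edgeR and by DESeq2 and 0 had an unadjusted p below 0.05, where 0% of the 161 miRNAs tested were called. The highest value there was 1.27 for rno-miR-30b-5p (SE 0.74, FDR 0.863).

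PTH in serum gave no call in the family. In ZDF rats 0 of 7 members were called, with 0% of the 154 miRNAs tested called, and in WT rats 0 of 7, with 0% of the 170 tested. DESeq2 called 0 and 0 members had an unadjusted p below 0.05 in either. In ZDF serum the members lay between −0.32 (rno-miR-30c-5p; SE 0.35) and 0.83 (rno-miR-30e-3p; SE 0.49), each with an FDR of 0.993, and in WT serum between −0.46 (rno-miR-30c-5p; SE 0.48) and 0.11 (rno-miR-30d-5p; SE 0.44), each with an FDR of 0.992. Rno-miR-30a-5p was at 5015, 4430, 15331, 4908 and 4557 CPM in WT PTH sera, where replicate 3 stood alone, and at 15056, 6240, 14528, 4318 and 5440 CPM in ZDF PTH sera, where replicates 1 and 3 were high. The genotypes overlapped under PTH, with 0 of 7 members called and 0% of the 158 miRNAs tested. DESeq2 again called 0, and 0 had an unadjusted p below 0.05. In the interaction of PTH and genotype 0 of 7 were called by either tool, 0 had an unadjusted p below 0.05, and 0% of the 182 miRNAs tested were called.

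Members were also compared with each other across libraries. These are descriptions over libraries that share their depth and scaling, given as Pearson's r of log2 CPM and Spearman's rho. In bone (n = 16), rno-miR-30b-5p and rno-miR-30c-5p went together, with r = 0.90 and rho = 0.90, and r = 0.91 about the group means. Leaving out the 2 libraries farthest from the median gave r = 0.86. In serum (n = 32) the same pair had r = 0.65 and rho = 0.57. The 3p arms of miR-30a and miR-30e, which come from different chromosomes, had r = 0.96 and rho = 0.94 in bone and r = 0.79 and rho = 0.78 in serum. Leaving out the 2 farthest libraries gave 0.93 and 0.73. Reads of these near-identical arms may have been shared, so their likeness may not be that of 2 separate genes.

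The 2 arms of 1 hairpin were not alike to the same degree. Rno-miR-30a-5p and rno-miR-30a-3p had r = 0.85 and rho = 0.76 in bone and r = 0.90 and rho = 0.84 in serum, and without the 2 farthest libraries r = 0.72 and 0.89. For rno-miR-30e-5p and rno-miR-30e-3p, r was 0.58 and rho 0.37 in bone, and r dropped to 0.29 without the 2 farthest libraries. In serum this pair had r = 0.35 and rho = 0.31. Rno-miR-30c-5p and rno-miR-30c-2-3p went opposite ways in bone, with r = −0.59 and rho = −0.61, or r = −0.37 about the group means. The count of rno-miR-30c-5p also holds the reads of the second hairpin. Rno-miR-30a-5p and rno-miR-30b-5p, both with the family's 5p name, had r = −0.53 and rho = −0.54 in bone and r = −0.39 and rho = −0.30 in serum.

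**Figure D5:**
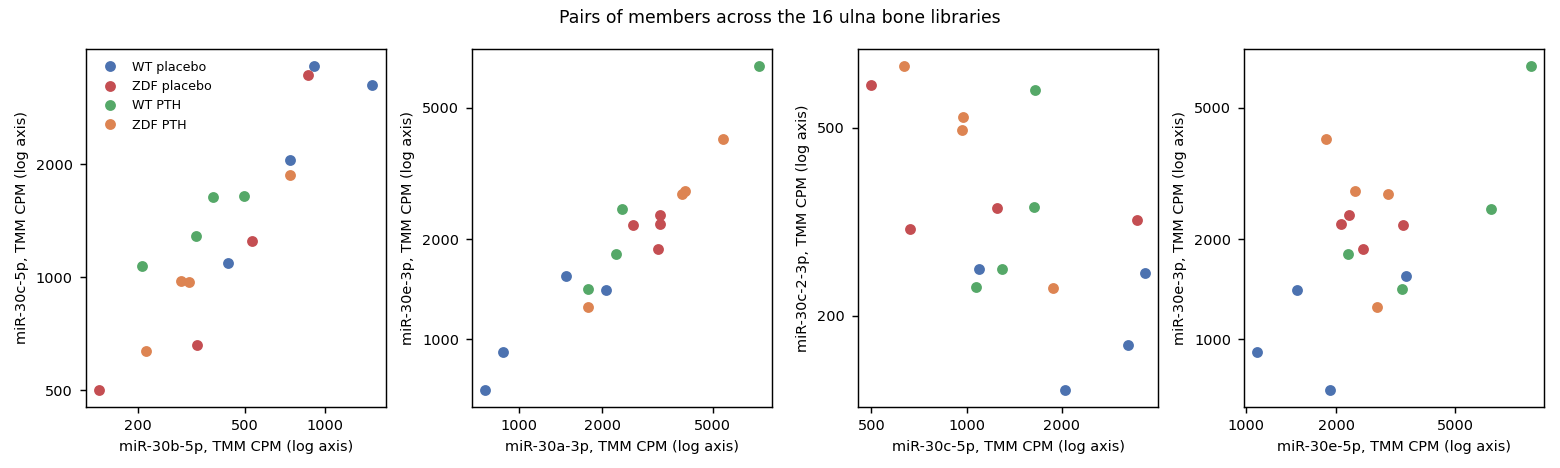
Levels of 4 pairs of members in the 16 ulna bone libraries, as TMM CPM on log axes, coloured by group. Rno-miR-30b-5p and rno-miR-30c-5p (r = 0.90) and the 3p arms of miR-30a and miR-30e (r = 0.96) line up, rno-miR-30c-5p and rno-miR-30c-2-3p run in opposite directions (r = −0.59), and the arms of miR-30e scatter (rho = 0.37). Reads of the 3p arms of miR-30a and miR-30e may have been shared.

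Outside the family, the miRNAs whose level was most like the summed 5p members were named for each tissue by Spearman's rho among those averaging 100 CPM or more. For bone these were rno-miR-101a-3p (rho = 0.94), rno-miR-340-5p (0.89) and rno-miR-532-5p (0.88), of 169 ranked over 16 libraries. In serum they were rno-miR-199a-3p (0.73), rno-miR-99a-5p (0.72) and rno-miR-3473 (0.66), of 162 ranked over 32 libraries. The summed 5p level rests mainly on rno-miR-30a-5p, with a median of 56.9% of the family's reads in serum and 72% in bone. The likeness may thus not hold for the other 5p members. Of the marker lists, the leukocyte sum had rho = −0.78 with rno-miR-30a-5p in serum, and the skeletal muscle and erythrocyte sums 0.52 and 0.51. In bone the osteoblast and mesenchymal sum had rho = 0.83 with rno-miR-30a-5p, and the leukocyte sum −0.77 with rno-miR-30a-3p. The former sum rests mainly on rno-miR-143-3p, with a bone median of 80388 CPM, where rno-miR-199a-5p was next at 11674 CPM. It had rho = −0.41 with rno-miR-30b-5p and −0.34 with rno-miR-30c-5p. The liver sum, which is close to 0 in bone, had rho = 0.69 with rno-miR-30a-5p. The skeletal muscle sum had rho = −0.25 with rno-miR-30a-5p in bone. Over the members it ran from −0.60 (rno-miR-30e-5p) to 0.40 (rno-miR-30b-5p).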

How the data were processed

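Small RNA libraries of 32 sera and 16 ulna bones were sequenced. Per the study's methods the authors trimmed reads with cutadapt and used bowtie within miRDeep2 to align them, first against the genome of the rat and after that against its miRBase entries with 1 mismatch allowed. How reads that match several miRNAs were assigned is not given in the sources used here. The deposited tables hold a read count per mature miRNA and RPM values. The deposited counts were tested. The authors' RPM values per library read gave the library totals, and a further RPM column per miRNA read was not used.

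Counts were tested with edgeR 4.0.16 (quasi-likelihood F test, TMM, filterByExpr with a minimum count of 10) in R 4.3.3, followed by independent filtering on mean CPM and Benjamini-Hochberg adjustment over all miRNAs kept. A miRNA was called at FDR < 0.2, two-sided. Only the groups compared entered a fit, and interactions used 4 groups, in 17 comparisons in all. A standard error is the log2 fold change divided by the square root of F. Scripts were tested on simulated data. Depth was 28015 to 205664 miRNA reads in serum and 41627 to 1398702 in bone, so low members rest on few reads.

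Named were all 8 members, the other rows of the family, any row with the seed of rno-miR-30a-5p, the 3 miRNAs most like the summed 5p members, and lists of skeletal muscle (miR-1-3p, miR-133a-3p, miR-133b-3p, miR-206-3p, miR-208b-3p, miR-499-5p), erythrocyte (miR-451-5p, miR-144-3p, miR-144-5p, miR-486), leukocyte (miR-223-3p, miR-142-3p, miR-142-5p, miR-150-5p), osteoblast and mesenchymal (miR-199a-3p, miR-199a-5p, miR-214-3p, miR-143-3p, miR-145-5p) and liver miRNAs (miR-122-5p, miR-122-3p, miR-192-5p). The members, lists and tests were chosen with earlier results of these data known. Alternatives were RLE size factors, library totals, DESeq2 1.42.0, no filter beyond 1 read, no independent filtering, all groups of a tissue in 1 fit, a hemolysis or skeletal muscle covariate, and each library left out. Leaving out the 2 bone libraries below 100000 miRNA reads of WT PTH rats, or the 3 placebo bones with over 200000 CPM of skeletal muscle miRNAs, was added after the data were examined.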

Additional observations from a re-analysis of the deposited data

Results flagged for a closer look

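Single libraries far from the rest of their group, by Dixon's test at the 95% level, were found in 6 of the 88 member and group combinations examined. Chance alone gives about 1 in 20 groups. Rno-miR-30a-5p was at 15331 CPM in serum WT PTH replicate 3, with the other 4 sera between 4430 and 5015 CPM. Rno-miR-30a-3p was at 2583 CPM in ulna bone ZDF placebo replicate 3, below the other 3 bones at 3179 to 3231 CPM. Rno-miR-30c-2-3p was at 617 CPM in ulna bone ZDF placebo replicate 1, above the other 3 bones at 305 to 338 CPM. Rno-miR-30d-5p was at 1044 CPM in serum ZDF insulin replicate 3, below the other 3 sera at 1782 to 1967 CPM. In serum, rno-miR-30c-2-3p was at 6.29 CPM in WT anti-sclerostin replicate 3 and at 20.5 CPM in ZDF anti-sclerostin replicate 3, where the other libraries of both groups were at 0. These 2 values rest on 1 and 2 reads. No member passed an interaction test, so no response was shown to differ between genotypes.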

How the results depend on the processing

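Of the values of single members under an alternative, 1963 kept their direction and side of the threshold, 128 changed sign with no call on either side, 99 lost a call, 27 gained one and 2 reversed. The reversals were both between ZDF and WT bone under PTH. Rno-miR-30a-3p was at −2.67 with the skeletal muscle covariate, and rno-miR-30a-5p at 0.86 without the 2 shallow libraries.

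The number of members called moved by over 1.5 times in 4 comparisons. For insulin in ZDF serum (1 called) it was 3 with library totals and 0 with no filter beyond 1 read, with all groups in 1 fit or with the hemolysis covariate. For ZDF versus WT placebo bone (3 called) it was 1 with no filter beyond 1 read or no independent filtering, and 0 with all groups in 1 fit or without the muscle-rich bones. For PTH in WT bone (5 called) it was 0 without independent filtering, with the skeletal muscle covariate or without the muscle-rich bones, and 1 without the shallow libraries. For ZDF versus WT bone under PTH (0 called) it was 1 with DESeq2 or with all groups in 1 fit, 4 with the skeletal muscle covariate and 3 without the shallow libraries. Those fits called 24 of 213, 15 of 160, 43 of 185 and 61 of 187 miRNAs in the same order. No miRNA at all was called for insulin with the hemolysis covariate or for PTH in WT bone with the muscle covariate. The same held without the muscle-rich bones for PTH in WT bone and for ZDF versus WT placebo bone. The share of the family in insulin serum was 1.2% without the erythrocyte list, against 0.898%. The cause was not tested.

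With each library left out in turn, the number called ran from 0 to 3 for anti-sclerostin and for insulin in ZDF serum, 0 to 6 for ZDF versus WT placebo bone, 0 to 7 for PTH in WT bone, 0 to 1 for ZDF versus WT PTH bone, 3 to 7 for bone versus serum in WT rats, 7 to 8 in ZDF rats, and 0 to 1 for the PTH interaction in bone. It stayed at 0 in the other comparisons. Only ZDF anti-sclerostin replicate 1 gave the 3 of that comparison.

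Library totals moved the median of all miRNAs by −0.29 for insulin, and under them 9 of 59 calls were higher against 17 of 40 with TMM. No paired analysis was possible because the labels give no replicate numbers that link rats across groups. Few rats per group, few reads of rno-miR-30c-2-3p in serum, and 2 shallow WT PTH bones limit these values.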
